A study of Rattus norvegicus with 43 samples.

Results

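The mRNAs described here belong to 8 genes of glucose handling in the kidney. Slc5a2 and Slc5a1 take glucose up from the tubular fluid, Slc2a2 and Slc2a1 carry it across cell membranes along its gradient, and Pck1, Fbp1, G6pc and Slc37a4 serve its synthesis. The members are the rows whose gene name equals one of these 8 names, out of 32545 genes in the normal salt table and 34899 genes in the high salt table. They come to 9 rows in each table, because 2 rows carry the name G6pc.

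Kidney cortex mRNA was measured by poly(A)-selected RNA sequencing in 43 libraries of male rats of the Dahl salt-sensitive (SS) strain, an inbred strain whose blood pressure rises on a salt-rich diet. Rats with the genotype label SSper1-/- (written below as labelled Per1KO) were set against rats with the label SS WT (written below as SS). All rats had 3 weeks on 4% NaCl (high salt) or on 0.4% NaCl (normal salt), and tissue was taken at 2am, in the active phase, or at 2pm, in the inactive phase. On high salt there were 5 libraries in each of the 4 groups (labelled Per1KO at 2am and 2pm, SS at 2am and 2pm). On normal salt there were 5 libraries labelled Per1KO at 2am, 6 labelled Per1KO at 2pm, 6 SS at 2am and 6 SS at 2pm. The labels give no age and do not say which part of Per1 the mutation removes. All 8 groups share the SS background, which is itself the disease strain, so no group is from a salt-resistant rat. Nothing in the labels says whether each library is a separate rat, so p-values measure the spread between libraries.

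The proximal tubule reclaims nearly all filtered glucose. The sodium-coupled transporter SGLT2, encoded by Slc5a2, does most of this in the early part of the tubule, and SGLT1, encoded by Slc5a1, takes up what is left further along. Glucose then leaves the cell through the facilitative transporter GLUT2, encoded by Slc2a2. The same cells make glucose from lactate, glutamine and glycerol, a pathway that besides the kidney only the liver and, to a lesser degree, the intestine carry out in full. Phosphoenolpyruvate carboxykinase (Pck1) commits oxaloacetate to the pathway, fructose-1,6-bisphosphatase (Fbp1) reverses the phosphofructokinase step, and the glucose-6-phosphate transporter of the endoplasmic reticulum (Slc37a4) feeds the catalytic subunit of glucose-6-phosphatase (G6pc), which releases free glucose.

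Promoter sequence is shown for the 3 members with a day-night difference past the threshold in SS kidneys on normal salt (Slc5a1, Pck1 and G6pc), as the 250 bases before the annotated start of each gene, 5′ to 3′ on the gene's strand. They come from RefSeq (build GRCr8), whose table matched all 8 names, G6pc by its entry G6pc1. Capitals mark matches, on either strand, to the letters CACGTG (E-box), TAGGTCA (bound by single REV-ERB and ROR receptors), TGACG (the core of the cyclic AMP response element), TGTTTAC (forkhead) or AGAACA (part of the glucocorticoid response element). The windows are chr14:81843085-81843334 on the minus strand for Slc5a1, chr3:182348322-182348571 on the plus strand for Pck1 and chr10:86807409-86807658 on the plus strand for G6pc.
Slc5a1: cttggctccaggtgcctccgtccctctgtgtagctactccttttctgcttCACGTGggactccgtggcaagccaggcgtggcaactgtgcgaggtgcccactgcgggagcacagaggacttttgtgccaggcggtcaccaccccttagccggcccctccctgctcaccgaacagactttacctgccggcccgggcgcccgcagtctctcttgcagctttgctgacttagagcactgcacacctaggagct
Pck1: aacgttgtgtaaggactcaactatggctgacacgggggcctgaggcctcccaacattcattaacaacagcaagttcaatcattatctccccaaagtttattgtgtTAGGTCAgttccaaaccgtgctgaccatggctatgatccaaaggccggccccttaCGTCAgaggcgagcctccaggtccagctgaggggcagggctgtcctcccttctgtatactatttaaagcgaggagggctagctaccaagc
G6pc: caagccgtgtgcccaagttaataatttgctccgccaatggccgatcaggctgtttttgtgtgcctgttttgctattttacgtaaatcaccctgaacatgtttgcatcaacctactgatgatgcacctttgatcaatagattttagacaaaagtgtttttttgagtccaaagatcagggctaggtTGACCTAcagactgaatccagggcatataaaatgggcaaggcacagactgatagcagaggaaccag
The Slc5a1 window held 1 CACGTG, which begins 200 bases before the start and which 5.59% of all 33469 promoters in the table hold. Pck1 and G6pc held TAGGTCA, found in 2.26% of promoters, at 145 bases before the Pck1 start and, on the opposite strand, at 66 bases before the G6pc start. Pck1 also held TGACG on the opposite strand (read as CGTCA), at 90 bases before the start, a motif in 18.2% of promoters. Among the other members, Slc5a2 and Slc2a2 held AGAACA (in 17.5% of promoters), both windows of Slc37a4 held TGACG, and Fbp1 and Slc2a1 held none of the 5 motifs. TGTTTAC (in 3.21% of promoters) was in no member's window. No motif match overlapped another within a window, and the windows of Slc37a4 overlap each other and share 1 TGACG.

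Sequencing depth, recovered from the FPKM values, was 15.3 to 27.6 M fragments on high salt and 24 to 41.6 M fragments on normal salt. The range of Per1 mRNA in libraries labelled Per1KO overlapped that in SS in each of the 4 pairs of groups. On high salt it was 9.13 to 12.2 FPKM at 2am in libraries labelled Per1KO and 4.98 to 11.3 FPKM in SS, and 8.64 to 20.9 FPKM at 2pm in libraries labelled Per1KO and 8.57 to 19.97 FPKM in SS. On normal salt it was 9.504 to 14.3 FPKM at 2am in libraries labelled Per1KO and 8.29 to 20.3 FPKM in SS, and 7.94 to 21.9 FPKM at 2pm in libraries labelled Per1KO and 12.7 to 26.9 FPKM in SS. The mean of the libraries labelled Per1KO was above that of SS at both times on high salt (10.6 and 8.43 FPKM at 2am) and below it at both times on normal salt (11.96 and 14.0 FPKM at 2am). The label is therefore given as a label throughout. Of the tissue markers, none of the 10 general proximal tubule markers was at 0 in any library, while the inner medulla marker Slc14a2 was at most 0.323 FPKM in 42 libraries. In the other library, SS high salt 2pm replicate 4, it was 12.3 FPKM.

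Of the 43 libraries, 3 stood apart. The summed FPKM of 3 early proximal tubule markers (Slc5a12, Slc7a7 and Slc7a8) was 31.6 and 66.8 in SS high salt 2pm replicates 4 and 5 and 40.1 in SS normal salt 2pm replicate 5, against 145 to 555 in the other 40 libraries. The same 3 libraries had 2010 to 3116 FPKM of late proximal tubule markers, against 59.9 to 1239 FPKM in the others. This sum leans on Slc7a13 (up to 3002 FPKM), as Atp11a reached at most 152 FPKM and Cyp7b1 at most 6.56 FPKM. In the 3 libraries the thick ascending limb markers summed to 2217 to 3094 FPKM, against 527 to 1978 FPKM in the others. That sum leans on Umod, with medians of 899 FPKM on high salt and 929 FPKM on normal salt. Podocyte markers summed to 12.5 to 33.4 FPKM in the 3 libraries, against 43.6 to 151 FPKM in the others. Slc5a2 was 2.01, 16.2 and 19.0 FPKM in these 3 libraries, against 43.4 to 260.2 FPKM in the others. G6pc was 13.3 to 35.2 FPKM, against 64.4 to 445 FPKM in the others, and Pck1 198.9 to 491 FPKM, against 854 to 4044 FPKM in the others. Slc2a1 went the other way, at 23.6 to 27.5 FPKM against 10.7 to 19.8 FPKM in the others. All 3 libraries are SS libraries taken at 2pm, so the member rows are given without them as well wherever a call, a direction or a count changed. In bulk tissue, fewer cells of a type and less RNA per cell cannot be told apart.

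**Figure D1:**
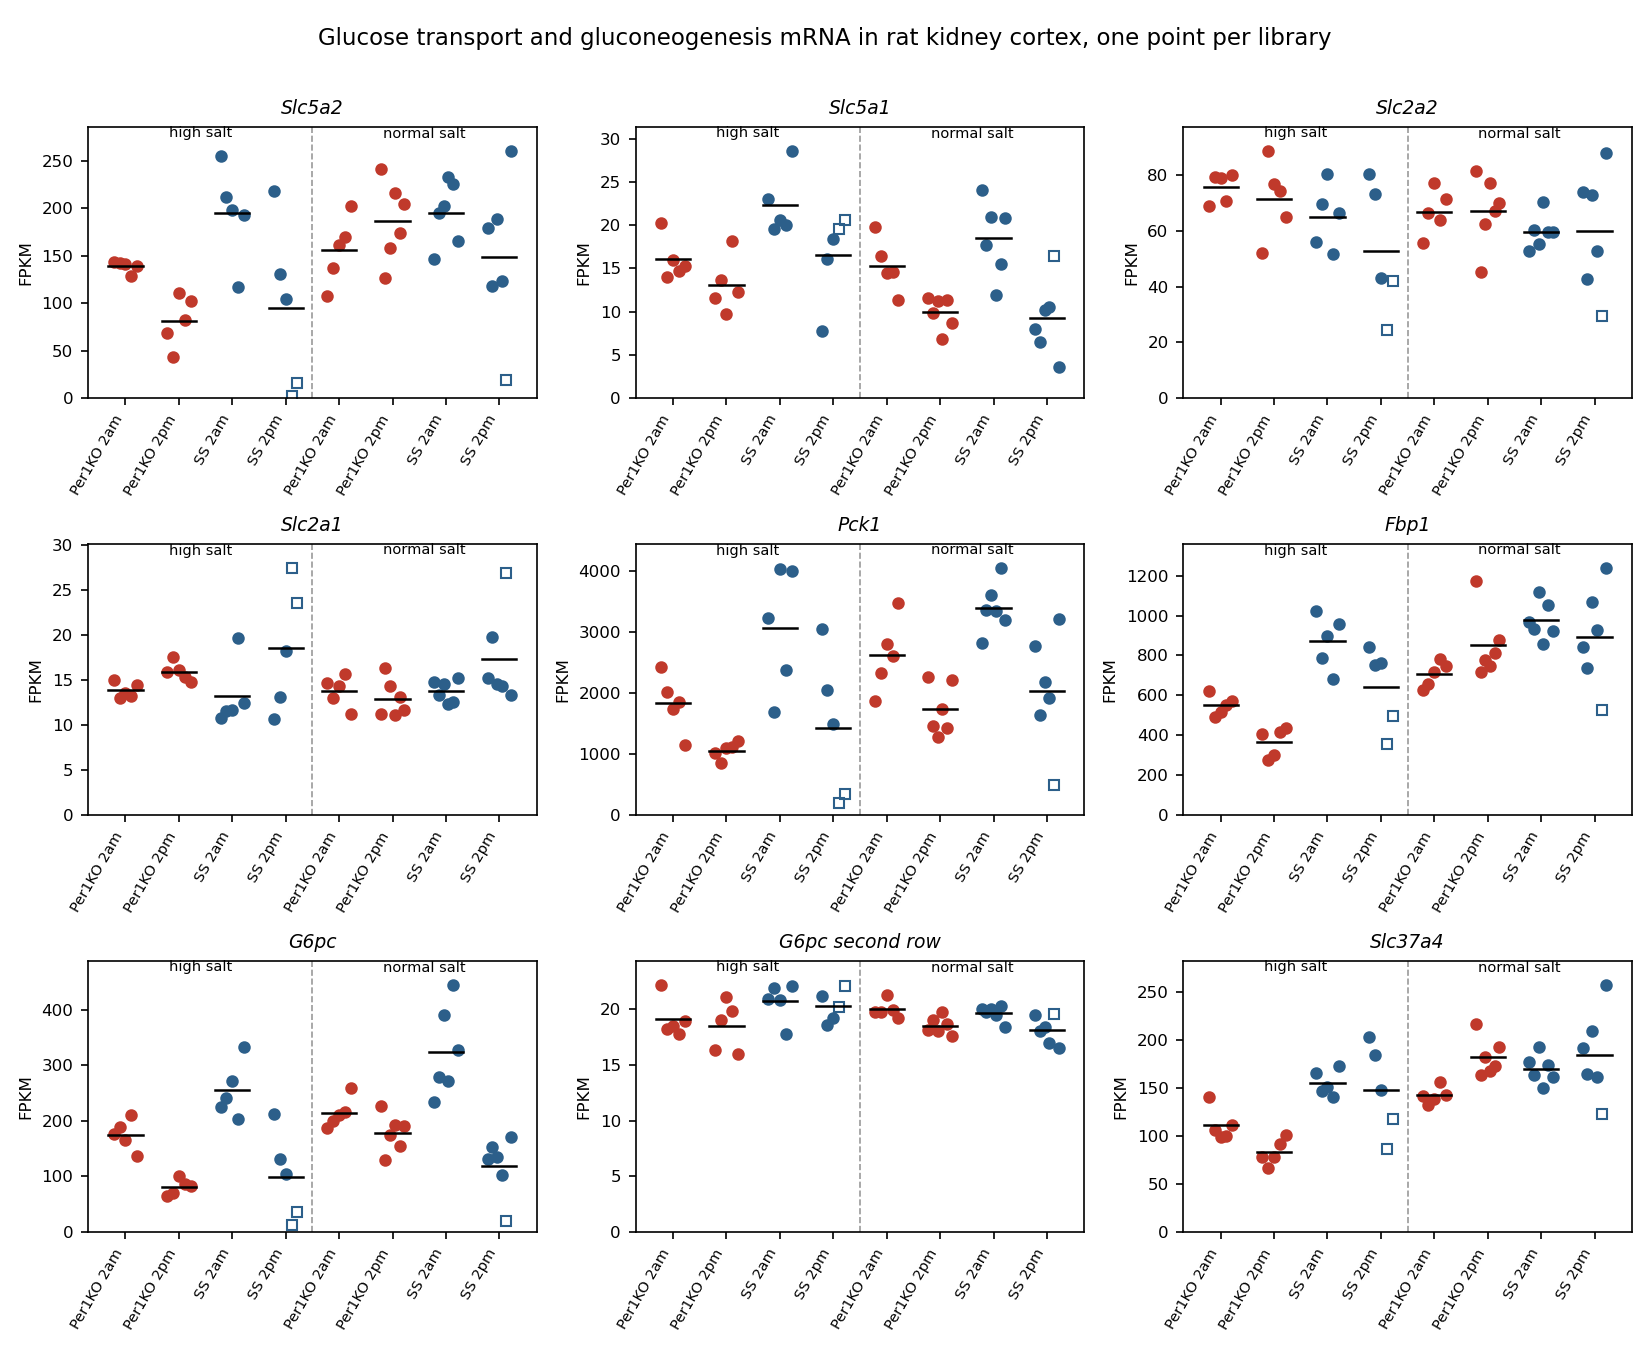
FPKM of the 9 member rows in each of 43 libraries (points), by genotype label and time, with high salt left and normal salt right of the dashed line; black bars are group means and every axis starts at 0. Open squares mark the 3 SS 2pm libraries low in early proximal tubule markers, which are the 3 lowest for Slc5a2, G6pc and Pck1 and the 3 highest for Slc2a1.

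FPKM is scaled by transcript length, so levels can be set side by side between genes. Pck1 was among the most abundant mRNAs of the cortex, with a mean of 1844 FPKM on high salt (22nd of all genes) and 2436 FPKM on normal salt (19th). Fbp1 followed with means of 608 FPKM on high salt and 863 FPKM on normal salt. G6pc averaged 153 FPKM on high salt and 209 FPKM on normal salt, Slc37a4 124 FPKM and 171 FPKM, and Slc5a2 127 FPKM and 172 FPKM. Slc2a2, the exit transporter, averaged 66.1 FPKM on high salt and 63.2 FPKM on normal salt. Slc5a1 and Slc2a1 were the lowest, at 17.0 and 15.4 FPKM on high salt and 13.2 and 14.5 FPKM on normal salt. The spread over libraries differed widely between members. The highest library was 25.0 times the lowest for G6pc on high salt and 21.9 times on normal salt, but 3.73 and 2.34 times for Fbp1.

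The pair of rows named G6pc behaved differently. The row at 10:89285855-89296213 on the plus strand (coordinates as in the files, with no build named there) held the variable signal and is called G6pc here. The row at 10:89236256-89244041, also on the plus strand, was nearly flat, between 16.0 and 22.2 FPKM on high salt and between 16.5 and 21.3 FPKM on normal salt. RefSeq gives its gene G6pc1 the synonyms G6pc and Psme3 and also lists Psme3 as a separate gene on the same chromosome. Both rows overlap a further row of the files on the same strand, so which transcript the flat row counts is uncertain. Slc37a4 overlaps another row on its strand, and Slc5a2 overlaps a row on the opposite strand. Whether the counting used strand is not stated, so reads shared with those rows cannot be told apart.

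In SS kidneys on normal salt, the mRNAs of a glucose uptake transporter and of 2 gluconeogenic enzymes were higher at night. Library names of these groups fall into different series, AZ2xx at 2am and OK at 2pm. Time of day and library series can therefore not be told apart here. At 2am against 2pm, G6pc was 3.15-fold higher, Slc5a1 2.02-fold higher and Pck1 1.91-fold higher on the log2(FPKM + 1) scale. Slc5a2, Slc2a2, Fbp1 and Slc37a4 did not pass the test in this comparison. Tests used limma with Benjamini-Hochberg adjustment over all 13436 genes, and a gene passed where the adjusted p was under 0.05. Of the 9 member rows, 3 passed, all as higher, where 26.3% of all genes tested passed, 14.3% as higher. The median difference of the 9 rows was 0.18 on the log2 scale, against -0.004 over all genes.

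G6pc stood at 235 to 445 FPKM in the 6 SS libraries at 2am (median 303), against 20.3 to 172 FPKM in the 6 SS libraries at 2pm (median 133). All 2am libraries lay above all 2pm libraries. The difference was 1.66 ± 0.34 on the log2 scale (SE; limma adjusted p = 0.00174), and 1.21 ± 0.16 (adjusted p = 2.9e-05) without the 2pm library low in early proximal tubule markers. Slc5a1 was 11.9 to 24.0 FPKM at 2am (median 19.3), against 3.61 to 16.4 FPKM at 2pm (median 9.12). Its groups overlapped only through the 2pm library low in early proximal tubule markers, which had the highest Slc5a1 of its group. The Slc5a1 difference was 1.02 ± 0.23 (limma adjusted p = 0.00336), and 1.19 ± 0.21 (adjusted p = 0.00047) without that library. Pck1 was 2812 to 4044 FPKM at 2am (median 3345), against 491 to 3212 FPKM at 2pm (median 2045), with overlapping groups. The Pck1 difference of 0.94 ± 0.30 (limma adjusted p = 0.0278) was 0.57 ± 0.18 (adjusted p = 0.0256) without the low library. Leaving out SS 2am replicate 5 or SS 2pm replicate 2 took the Pck1 adjusted p to 0.0579 or 0.0538 in limma, and the spread of these 2 groups alone took it to 0.102. Without the low library the flat row named G6pc also passed, at 0.13 ± 0.05 (adjusted p = 0.0347), against 0.11 ± 0.04 (adjusted p = 0.0713) with it, which makes 4 of 9 rows, where 29.4% of all genes passed.

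Markers of cell types and of injury also differed between these 2 groups. Of the 10 general proximal tubule markers, 3 were higher at 2am in SS on normal salt and 0 lower, with a median log2 difference of 0.40, and they summed to 6699 to 8011 FPKM at 2am, against 3823 to 7133 FPKM at 2pm. Of the 3 early proximal tubule markers 1 was higher (median 0.83), and of the 3 late ones 0 passed (median 0.01). Of the 4 injury markers (Havcr1, Lcn2, Spp1 and Vcam1) 2 were lower (median -0.98), and of the 4 macrophage markers 3 were lower (median -0.39). Without the low library 3 general and 1 early proximal tubule markers were higher (medians 0.16 and 0.37), and 2 injury and 2 macrophage markers lower (medians -0.91 and -0.38). Over all genes, 16.0% were then higher and 13.4% lower. The part of these markers in the member differences was not tested. In SS on high salt, 0 markers of these 5 lists passed between 2am and 2pm with limma, with all libraries or without the 2 low ones.

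In kidneys labelled Per1KO on normal salt, none of the 9 rows passed between 2am and 2pm with limma, where 3.11% of all genes did and 3 rows had an unadjusted p under 0.05 (median of the rows 0.09, of all genes -0.002). G6pc was 187, 200, 211, 217 and 259 FPKM at 2am, against 129 to 226 FPKM at 2pm (median 183). Pck1 was 1872, 2332, 2608, 2799 and 3469 FPKM at 2am, against 1282 to 2253 FPKM at 2pm (median 1598). Slc5a1 was 11.4, 14.5, 14.6, 16.4 and 19.8 FPKM at 2am, against 6.82 to 11.6 FPKM at 2pm (median 10.6). The groups of all 3 genes overlapped, Slc5a1 in a single library of 2am. The difference between 2am and 2pm was 0.58 ± 0.24 for Slc5a1 (limma adjusted p = 0.1995) and -0.35 ± 0.13 for Slc37a4 (adjusted p = 0.138), and neither passed. With the spread of these 2 groups alone both passed (limma adjusted p = 0.0418 and 0.0207), but the share of all genes passing in that fit is not given here.

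Whether the day-night difference itself depended on the label was tested as an interaction on normal salt. No member row passed, where 2.81% of all genes passed and 1 row had an unadjusted p under 0.05 (median of the rows -0.33, of all genes -0.007). That row was G6pc, whose day-night difference in kidneys labelled Per1KO minus that in SS was -1.37 ± 0.49 on the log2 scale (limma adjusted p = 0.110). Without SS 2pm replicate 5 the G6pc interaction was -0.93 ± 0.23 and passed (adjusted p = 0.0329), where 3.58% of all genes passed. It passed in no other of the 23 fits that left out 1 library. That library was chosen after seeing the data and had the lowest G6pc of its group (20.3 FPKM). Leaving it out narrows the spread by construction, so it is no separate support for an interaction. G6pc means followed the order SS at 2am (325 ± 79.9 FPKM), labelled Per1KO at 2am (215 ± 27.5), labelled Per1KO at 2pm (178 ± 33.7) and SS at 2pm (119 ± 53.6 FPKM; SD, n = 6, 5, 6 and 6 libraries). Each step in this order was larger than the larger SD of its 2 groups, though neighbouring groups overlapped.

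On high salt the day-night difference of G6pc in SS kidneys also passed, and no other member did. G6pc was 203, 225, 242, 271 and 333 FPKM at 2am in SS, against 13.3, 35.2, 105, 131 and 212 FPKM at 2pm in SS. The groups overlapped in 1 library of each, and the 2 lowest values were those of the 2 libraries low in early proximal tubule markers. The difference was 1.87 ± 0.48 (limma adjusted p = 0.0290), with 1 of 9 rows passing where 5.44% of all genes passed, 2.85% as higher (median of the rows 0.47, of all genes 0.000). Without those 2 libraries it was 0.81 ± 0.20 (adjusted p = 0.0637), where 1.15% of all genes passed, and 0 rows passed. Among 10 fits that each left out 1 library, the G6pc call was lost in 5 (adjusted p up to 0.0805). These 5 left out SS 2am replicate 1, 2, 3 or 5 or SS 2pm replicate 5. The call was also lost with the spread of these 2 groups alone, where 0 of 9 rows passed.

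Pck1 was 1684, 2373, 3222, 3998 and 4031 FPKM at 2am in SS on high salt, against 199, 347, 1490, 2050 and 3042 FPKM at 2pm in SS. The groups overlapped, and the difference of 1.67 ± 0.54 did not pass (limma adjusted p = 0.0701). It passed at 2.10 without SS 2pm replicate 1 (adjusted p = 0.0109) and at 1.96 without replicate 2 (adjusted p = 0.0404). Slc5a2 was 117, 193, 198, 212 and 254.6 FPKM at 2am in SS, against 2.01, 16.2, 104, 131 and 219 FPKM at 2pm in SS. Its difference of 2.12 ± 0.77 did not pass either (adjusted p = 0.101), and passed only when SS 2pm replicate 1, the highest of its group, was left out (2.71, adjusted p = 0.0194). The same omission brought Slc2a1 (-0.59, adjusted p = 0.0266) and Fbp1 (0.61, adjusted p = 0.0449) past the threshold. In kidneys labelled Per1KO on high salt, 0 of 9 rows passed between 2am and 2pm with limma, where 0.262% of all genes did and 3 rows had an unadjusted p under 0.05 (median of the rows 0.42, of all genes 0.002).

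In kidneys labelled Per1KO on high salt, where no row passed with the shared spread, the G6pc ranges at the 2 times were separate. G6pc was 137, 165, 176, 188 and 210.2 FPKM at 2am, against 64.4, 70.9, 83.3, 85.6 and 100.2 FPKM at 2pm. All 2am libraries lay above all 2pm libraries, and the difference was 1.11 ± 0.48 (limma adjusted p = 0.265) with a spread shared over all groups of the table. Fitted with the spread of these 2 groups alone, it was 1.11 ± 0.13 (adjusted p = 0.00663). Fbp1 was 490, 519, 550.2, 573 and 623 FPKM at 2am, against 275, 299, 407, 416 and 438 FPKM at 2pm, again without overlap. Its difference was 0.60 ± 0.20 with the shared spread (limma adjusted p = 0.160) and 0.60 ± 0.14 with the spread of the 2 groups alone (adjusted p = 0.0358). The share of all genes with separate ranges at the 2 times, or passing in the fit of these 2 groups alone, is not given here. The separate ranges and the 2-group fits are therefore a description and no result about the members. In a test of whether the day-night difference depended on the label on high salt, 0 of 9 rows passed with limma, where 0.101% of all genes did and 0 rows had an unadjusted p under 0.05 (median of the rows -0.18, of all genes -0.006). Without the 2 low libraries 0 rows passed as well. All 2am libraries have names of the series AZ2xx and no 2pm library does, so time of day and library series cannot be told apart. The labels do not say what a series stands for.

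**Figure D2:**
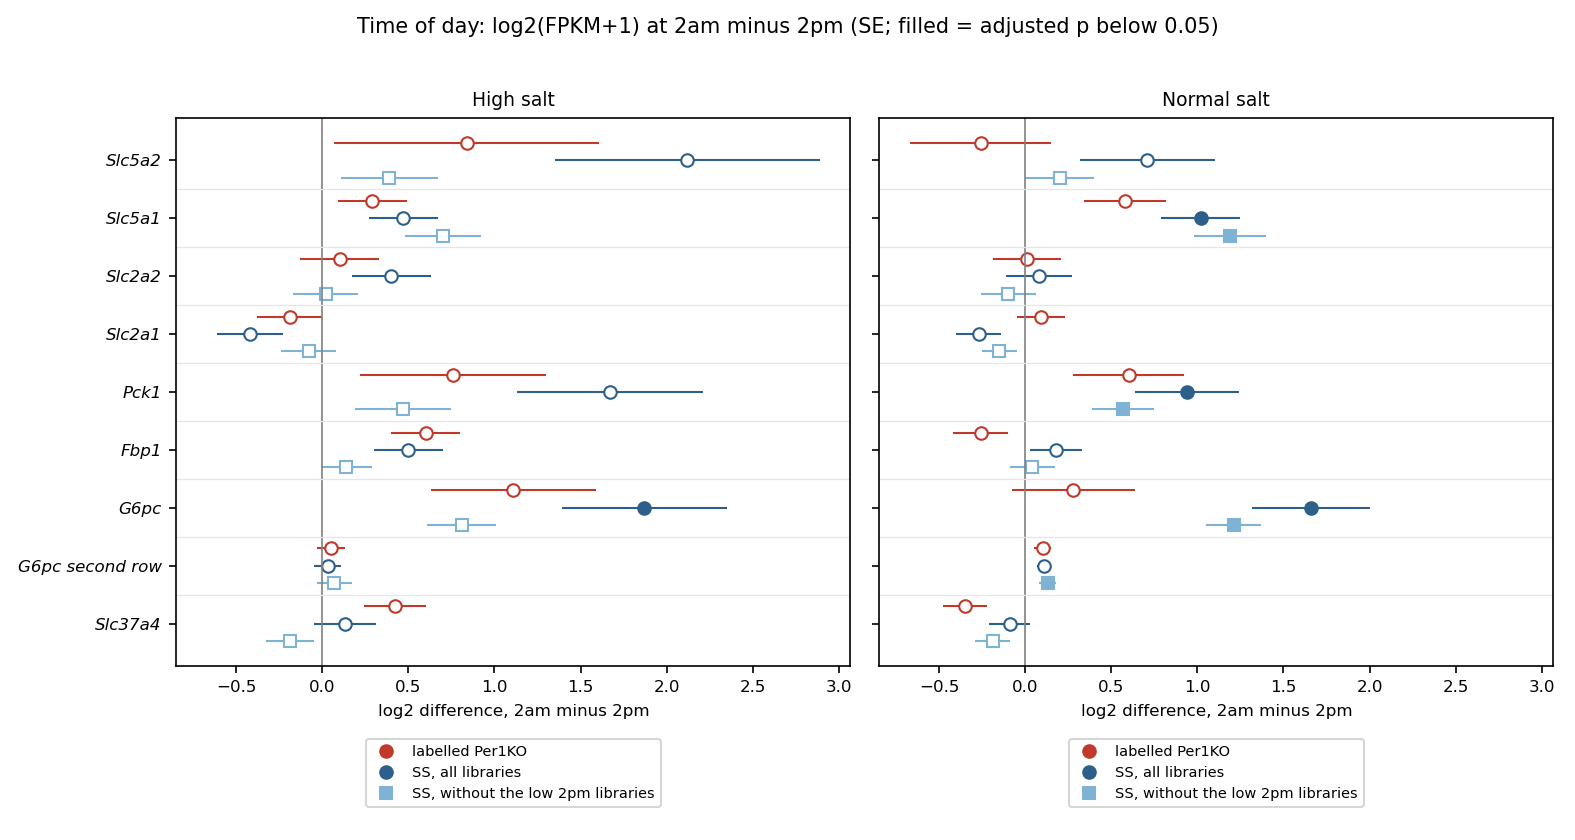
Difference in log2(FPKM + 1) between 2am and 2pm for each member row (limma estimate with SE; filled symbols have an adjusted p below 0.05), on high salt (left) and normal salt (right). Circles use all libraries and squares leave out the SS 2pm libraries low in early proximal tubule markers; G6pc in SS is 1.66 on normal salt and 1.87 on high salt with all libraries and 1.21 and 0.81 without them.

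On high salt, the mRNAs of the gluconeogenic enzyme Fbp1 and of the glucose-6-phosphate transporter Slc37a4 were lower at 2pm in kidneys labelled Per1KO, at 0.591 and 0.584 of the SS level on the log2(FPKM + 1) scale. Of all genes, 15.7% were lower in that comparison. Without the 2 SS libraries low in early proximal tubule markers, 5 of the 9 rows were lower, where 18.2% of all genes were. Slc5a2, Pck1 and G6pc were the other members. These 2 libraries were chosen after seeing the data and hold the 2 lowest SS values of Slc5a2, Pck1 and G6pc in this group. Leaving them out raises the SS level of those genes by construction, so it is no separate support for a lower level. At 2am Fbp1 was lower and no other member passed, where 4.64% of all genes were lower. On normal salt no member passed at either time.

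At 2pm on high salt, Fbp1 was 275, 299, 407, 416 and 438 FPKM in kidneys labelled Per1KO, against 356, 496, 751, 765 and 841 FPKM in SS. The groups overlapped only through SS replicate 4, and the 2 lowest SS values were those of the libraries low in early proximal tubule markers. Its difference was -0.76 ± 0.20 (limma adjusted p = 0.00824), and -1.12 ± 0.15 (adjusted p = 0.000167) without those libraries. Slc37a4 was 66.1, 77.9, 78.2, 91.5 and 101.0 FPKM in kidneys labelled Per1KO, against 86.5, 117, 148, 185 and 203 FPKM in SS. Here 2 libraries labelled Per1KO lay above the lowest SS library. Its difference was -0.78 ± 0.18 (limma adjusted p = 0.00363), and -1.10 ± 0.14 (adjusted p = 0.000133) without the 2 SS libraries. Both genes passed in each of the 10 fits that left out 1 library. Of the 9 rows, 2 passed, both as lower, where 29.8% of all genes passed, 15.7% as lower (median of the rows -0.13, of all genes 0.003). With the spread of these 2 groups alone, Fbp1 had an adjusted p of 0.0535 and Slc37a4 of 0.0343 in limma.

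Slc5a2, Pck1 and G6pc changed direction in this comparison when the 2 SS libraries were left out. Slc5a2 was 43.4, 68.1, 82.0, 102 and 110.2 FPKM in kidneys labelled Per1KO, against 2.01, 16.2, 104, 131 and 219 FPKM in SS. Its difference of 0.84 ± 0.77 (limma adjusted p = 0.444) became -0.89 ± 0.28 (adjusted p = 0.0206). Pck1 was 854, 1018, 1092, 1106 and 1210 FPKM in kidneys labelled Per1KO, against 199, 347, 1490, 2050 and 3042 FPKM in SS. The SS values lay on both sides of the narrow range labelled Per1KO, and the difference of 0.20 ± 0.54 (adjusted p = 0.817) became -1.0 ± 0.28 (adjusted p = 0.0126). For G6pc, whose values at 2pm are given above for both labels, the difference of 0.23 ± 0.48 (adjusted p = 0.752) became -0.83 ± 0.20 (adjusted p = 0.00532). In that fit 5 of 9 rows passed as lower, where 33.4% of all genes passed, 18.2% as lower. Removing replicate 4 alone turned all 3 directions (-0.12 for Slc5a2, -0.35 for Pck1 and -0.33 for G6pc), with no call.

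Library names at 2pm on high salt fall into 2 series, AZ0xx with 3 libraries labelled Per1KO and 2 SS libraries, and AZxx with 2 and 3. Within AZ0xx, 5 of 9 rows were lower in kidneys labelled Per1KO (17.2% of all genes as lower), with -1.30 ± 0.18 for Fbp1 (limma adjusted p = 0.000368) and -1.38 ± 0.14 for Slc37a4 (adjusted p = 6.0e-05). Within AZxx, which holds both SS libraries low in early proximal tubule markers, the differences were -0.27 ± 0.24 for Fbp1 (adjusted p = 0.504) and -0.25 ± 0.19 for Slc37a4 (adjusted p = 0.407). The member that passed there was Slc2a2, at 0.95 ± 0.21 (adjusted p = 0.0176; 3.88% of all genes passed as higher). With the series as a covariate, Fbp1 was at -0.78 ± 0.21 (adjusted p = 0.00994) and Slc37a4 at -0.81 ± 0.18 (adjusted p = 0.00354), where 14.7% of all genes passed as lower. Slc2a2 over both series was 52.2, 65.0, 74.4, 76.8 and 88.6 FPKM in kidneys labelled Per1KO, against 24.5, 42.1, 43.2, 73.2 and 80.2 FPKM in SS, a difference of 0.53 ± 0.23 (adjusted p = 0.0899). Without the 2 low libraries that difference was 0.15 ± 0.19 (adjusted p = 0.574).

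At 2am on high salt, Fbp1 was 490, 519, 550.2, 573 and 623 FPKM in kidneys labelled Per1KO, against 684, 789, 898, 958 and 1025 FPKM in SS. The groups did not overlap, and the difference was -0.65 ± 0.20 (limma adjusted p = 0.0473). The call lies close to the threshold. It was lost in 8 of 10 fits that left out 1 library (adjusted p up to 0.137), and held only without labelled Per1KO replicate 1 or SS replicate 4. It was also lost without the filter on low values (adjusted p = 0.0848) and with voom (adjusted p = 0.0656). Slc37a4 was 99.2, 99.8, 106, 112 and 140.3 FPKM in kidneys labelled Per1KO, against 140.3, 147, 151, 166 and 173 FPKM in SS. Its difference of -0.48 ± 0.18 did not pass (adjusted p = 0.0953), nor did that of Slc5a1 at -0.45 ± 0.20 (adjusted p = 0.175). Of the 9 rows, 1 passed, as lower, where 8.95% of all genes passed, 4.64% as lower (median of the rows -0.45, of all genes -0.007).

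On normal salt, 0 of 9 rows passed between labels at 2pm, where 0.372% of all genes did and 2 rows had an unadjusted p under 0.05 (median of the rows 0.03, of all genes -0.005). Without the low SS library 0 rows passed at 2pm as well. All 6 libraries labelled Per1KO at 2pm on normal salt have names of the series AZ0xx and all 6 SS libraries names of another series, so label and library series cannot be told apart there, nor in the label-by-time interaction on normal salt. Also 0 of 9 rows passed at 2am, where 4.18% of all genes did and 1 row had an unadjusted p under 0.05 (median of the rows -0.25, of all genes -0.021). Fbp1 at 2am was 624.8, 657, 718, 747 and 782 FPKM in kidneys labelled Per1KO, against 859 to 1121 FPKM in SS (median 951). The groups did not overlap, but the difference of -0.47 ± 0.16 did not pass with the spread shared over the table (limma adjusted p = 0.0993). It passed with the spread of the 2 groups alone (adjusted p = 0.00564), but the share of all genes passing in that fit is not given here. G6pc at 2pm differed by 0.81 ± 0.34 (adjusted p = 0.288), and by 0.36 ± 0.16 (adjusted p = 0.242) without the low SS library. Slc2a1 at 2pm was 11.1 to 16.3 FPKM in kidneys labelled Per1KO (median 12.4), against 13.4 to 26.9 FPKM in SS (median 14.9), a difference of -0.37 ± 0.13 (adjusted p = 0.227).

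**Figure D3:**
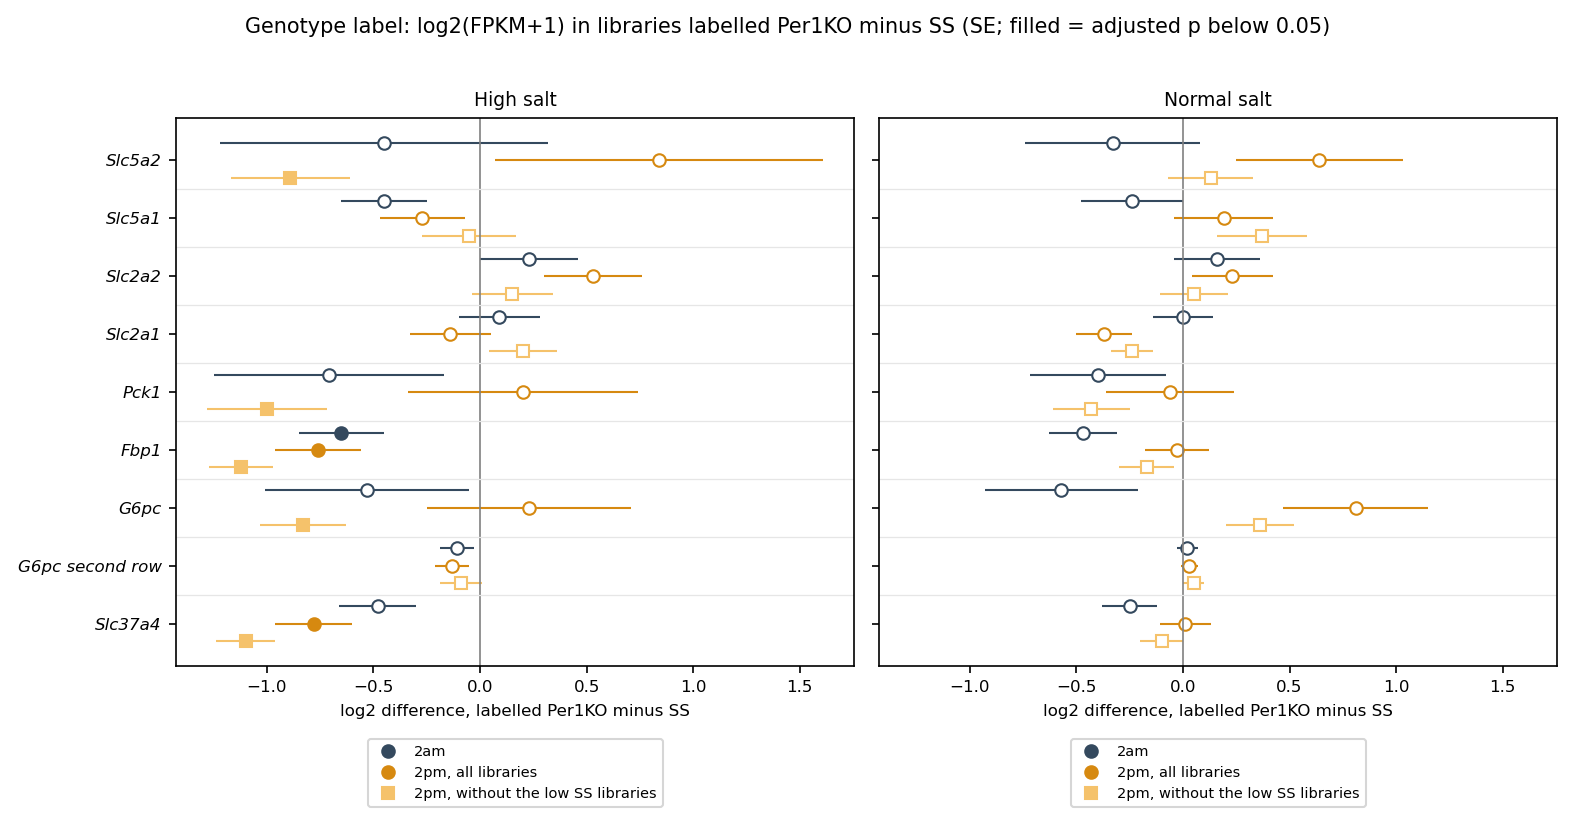
Difference in log2(FPKM + 1) between kidneys labelled Per1KO and SS for each member row (limma estimate with SE; filled symbols have an adjusted p below 0.05), on high salt (left) and normal salt (right). Squares leave out the SS 2pm libraries low in early proximal tubule markers; on high salt at 2pm Fbp1 is at -0.76 with all libraries and -1.12 without those, and Slc5a2, Pck1 and G6pc move to the other side of 0.

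Markers of the proximal tubule, of tubular injury and of other cell types moved with the label on high salt, and some on normal salt. At 2pm on high salt, the 10 general proximal tubule markers summed to 1972 to 3434 FPKM in kidneys labelled Per1KO, against 2975 to 8057 FPKM in SS, and 4 of the 10 were lower and 0 higher (median -0.47), where 15.7% of all genes were lower. Without the 2 low SS libraries 9 of the 10 were lower (median -1.01), where 18.2% of all genes were. Of the 3 late proximal tubule markers 2 were lower (median -0.87), or 1 without those libraries (median -0.80), and of the 3 early ones 0 passed (median 0.39), or 2 were lower without them (median -0.93). At 2am the 10 general markers summed to 3585 to 5609 FPKM in kidneys labelled Per1KO, against 4923 to 8397 FPKM in SS, with 0 of 10 passing (median -0.45). The 4 injury markers summed to 3152 to 6915 FPKM at 2pm in kidneys labelled Per1KO, against 839 to 5751 FPKM in SS, and 2 of the 4 were higher (median 1.3), or 3 of the 4 without the 2 low SS libraries (median 2.09). At 2am they summed to 2060 to 5691 FPKM in kidneys labelled Per1KO, against 189.8 to 2284 FPKM in SS, and 3 of the 4 were higher (median 2.24). The 4 macrophage markers summed to 107 to 184 FPKM at 2pm in kidneys labelled Per1KO, against 69.7 to 85.7 FPKM in SS, and all 4 were higher (median 0.76, or 0.75 without the low libraries), while at 2am 3 of the 4 were higher (median 0.64). The 3 fibroblast and mural markers were all higher at 2pm (median 0.82, or 0.76 without the low libraries), and 1 of the 3 at 2am (median 0.31). With all libraries on high salt, 14.2% of all genes were higher at 2pm and 4.30% at 2am. On normal salt at 2am, 3 of the 4 injury markers were also higher in kidneys labelled Per1KO (median 1.48). So were 3 of the 4 macrophage markers (median 0.65) and 1 of the 3 fibroblast and mural markers (median 0.47). Over all genes, 3.19% were higher there. The 10 general proximal tubule markers had 0 passing (median -0.37). At 2pm on normal salt 0 markers of these lists passed. The injury sum leans on Spp1, with medians of 3507 FPKM on high salt and 1180 FPKM on normal salt. None of the 10 general proximal tubule and 4 injury markers was at 0 in any library. Their part in the member differences was not tested.

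Per 100 FPKM of the 10 proximal tubule markers, Fbp1 at 2pm on high salt was 12.8 ± 0.668 FPKM in kidneys labelled Per1KO and 12 ± 1.21 FPKM in SS (SD, n = 5 each). At 2am it was 13.2 ± 1.93 FPKM in kidneys labelled Per1KO and 13.1 ± 0.651 FPKM in SS. Slc37a4 on the same scale was 2.94 ± 0.402 FPKM in kidneys labelled Per1KO and 2.76 ± 0.281 FPKM in SS at 2pm. At 2am it was 2.64 ± 0.223 FPKM in kidneys labelled Per1KO and 2.37 ± 0.325 FPKM in SS. With all libraries, the means of the labels on this scale differed by less than the larger SD for both genes at both times. Without the 2 low SS libraries, Fbp1 at 2pm was 12.2 to 13.9 FPKM in kidneys labelled Per1KO, against 10.4, 11.1 and 12.9 FPKM in SS, and Slc37a4 was 2.34 to 3.35 FPKM in kidneys labelled Per1KO, against 2.49, 2.52 and 2.74 FPKM in SS. Across the 20 high salt libraries, the coefficient of variation of Fbp1 was 36.5% as FPKM and 9.65% per marker. That of Slc37a4 was 31.2% and 13.4%, and that of G6pc 55.0% and 42.5%. Slc2a2 and Slc2a1 varied more per marker (57.6% and 59.2%) than as FPKM (24.7% and 27.7%). Per marker, Slc2a2 on high salt did not overlap between labels. It was 1.56 to 4.49 FPKM in kidneys labelled Per1KO and 0.729 to 1.14 FPKM in SS at 2pm, and 1.23 to 2.11 and 0.668 to 1.2 FPKM at 2am. As FPKM, Slc2a2 overlapped between labels at both times, while the marker sum ran lower in kidneys labelled Per1KO. The flat row named G6pc also did not overlap per marker at 2am (0.395 to 0.498 and 0.25 to 0.371 FPKM), but did at 2pm. The share of all genes that separate on this scale is not given here, so the separation is no result about Slc2a2. Fbp1 per marker on normal salt at 2am was 11.9 to 12.7 FPKM in kidneys labelled Per1KO and 12.8 to 14.5 FPKM in SS. At 2pm on normal salt its ranges overlapped. The marker sum leans on Slc34a1 and Gatm, with medians of 1008 and 965 FPKM on high salt and 1738 and 1921 FPKM on normal salt. The medians of the other markers were at most 524 FPKM on high salt and 533.5 FPKM on normal salt. The ratios are therefore no even measure of the 10 markers. These ratios share each library's scaling and are given as a description.

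**Figure D4:**
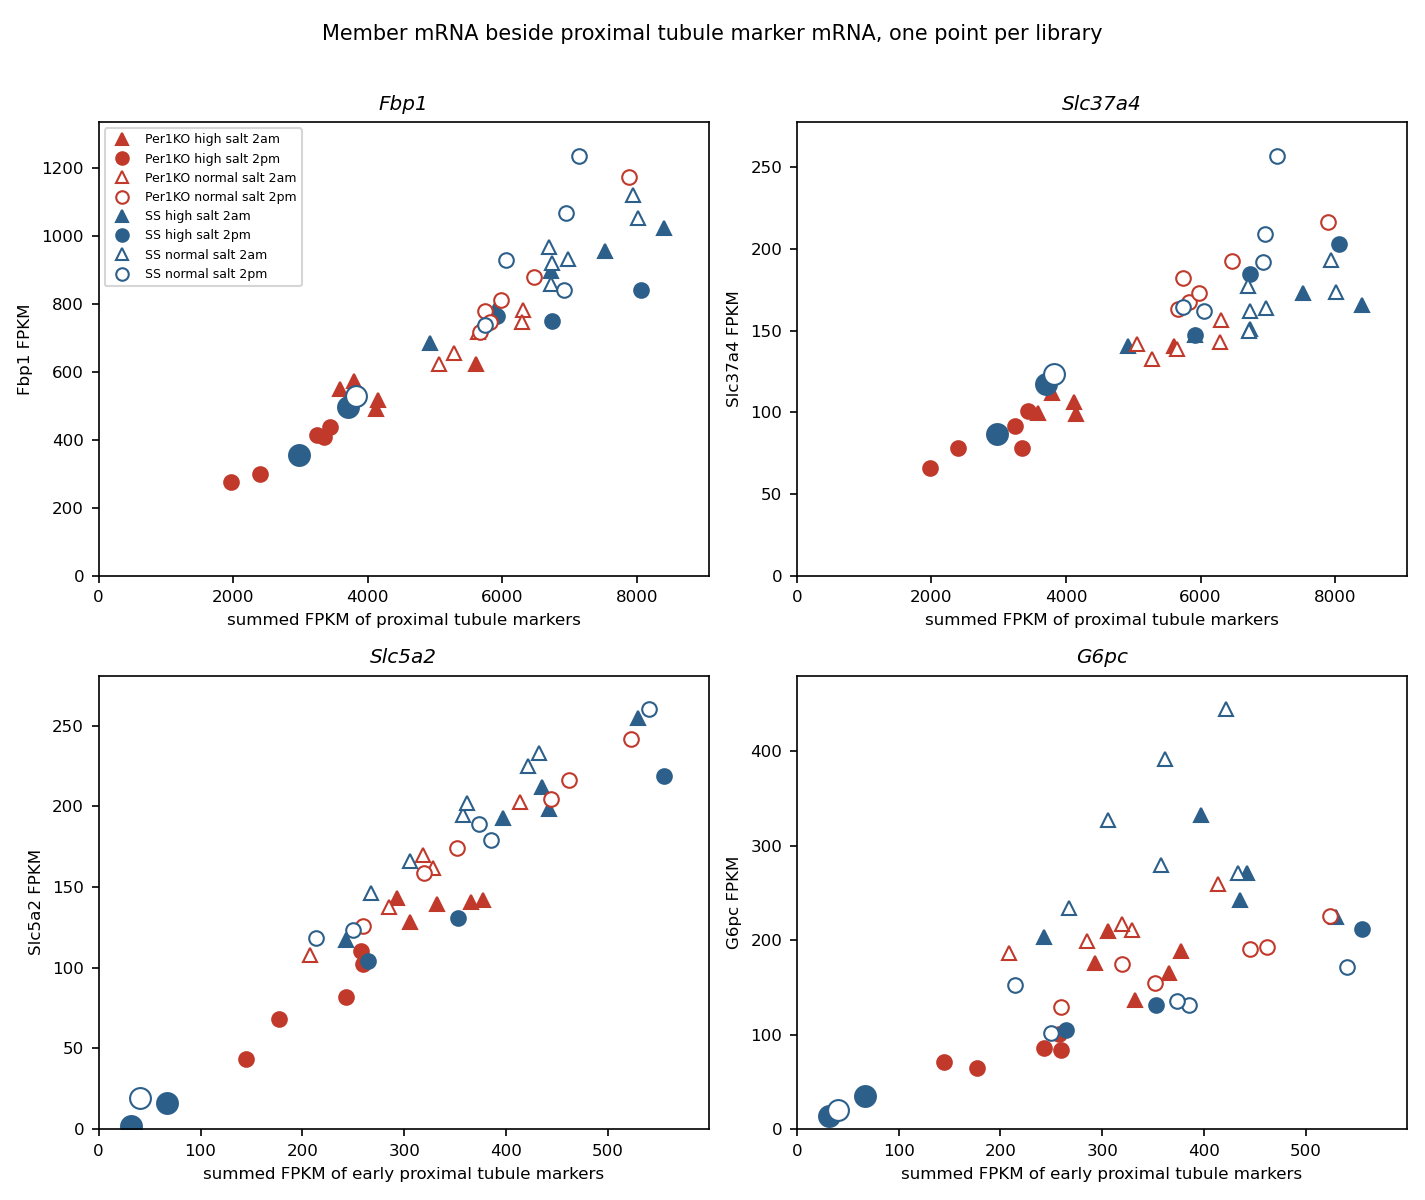
FPKM of Fbp1 and Slc37a4 against the summed FPKM of 10 general proximal tubule markers, and of Slc5a2 and G6pc against that of 3 early proximal tubule markers, 1 point per library (large points are the 3 libraries low in the early markers). Fbp1, Slc37a4 and Slc5a2 lie along a band through all groups, while G6pc in SS spans 203 to 445 FPKM at 2am and 13.3 to 212 FPKM at 2pm.

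The genotype difference was also compared between diets, in 1 fit of all 43 libraries, where a scale factor shared by both arms of a table cancels. At 2pm the difference between kidneys labelled Per1KO and SS was lower on high salt than on normal salt for Fbp1, by -0.73 ± 0.25 (limma adjusted p = 0.0343), and for Slc37a4, by -0.79 ± 0.21 (adjusted p = 0.00799). Of the 9 rows, 2 passed as lower, where 23.1% of 13260 genes passed, 11.8% as lower (median of the rows -0.16, of all genes -0.015). Without the 3 libraries low in early proximal tubule markers 4 rows passed as lower, where 32.1% of genes passed, 17.5% as lower, with Slc5a2 at -1.02 ± 0.35 (adjusted p = 0.0240) and G6pc at -1.19 ± 0.27 (adjusted p = 0.00138). Fbp1 was then at -0.95 ± 0.20 and Slc37a4 at -1.0 ± 0.17. These 3 SS libraries were chosen after seeing the data and are the lowest of all 43 libraries in Slc5a2 and G6pc. Since label and library series cannot be told apart on normal salt at 2pm, they cannot be told apart in this difference between diets either. With all libraries, the Fbp1 call was lost in 8 of 22 fits that left out 1 library (adjusted p up to 0.0777), and that of Slc37a4 in 0. Those 8 fits were those without labelled Per1KO replicate 1 or SS replicates 2 or 5 on normal salt, and without labelled Per1KO replicates 2 or 3 or SS replicates 1, 2 or 3 on high salt. At 2am 0 of 9 rows passed with limma, where 0% of genes did (0 of 13260, with 763 at an unadjusted p under 0.05), and the median was -0.14 for the rows and -0.002 for all genes.

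The day-night difference of kidneys labelled Per1KO was higher on high salt than on normal salt for Slc37a4, by 0.77 ± 0.22 (limma adjusted p = 0.0428), where 3.31% of genes passed, 1.64% as higher (median of the rows 0.16, of all genes 0.011). The Slc37a4 difference between 2am and 2pm was 0.42 on high salt and -0.35 on normal salt, and neither passed on its own. The interaction was lost in 14 of 21 fits that left out 1 library (adjusted p up to 0.0942). It was kept only without labelled Per1KO replicate 4 at 2am or replicates 2, 4 or 5 at 2pm on normal salt, or replicate 4 at 2am or replicates 4 or 5 at 2pm on high salt. With replicate number as a block it was 0.74 (adjusted p = 0.0527). Fbp1 had 0.86 ± 0.26 in the same comparison (adjusted p = 0.0531). In SS kidneys 0 of 9 rows passed with limma, where 0.0754% of genes did and 0 rows had an unadjusted p under 0.05 (median of the rows 0.22). Without the 3 low libraries 0 rows passed as well.

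Diet itself was not tested, because each diet has its own table and the diet and the table cannot be told apart. Side by side, 5 of the 9 rows at 2pm in kidneys labelled Per1KO had every high salt library below every normal salt library, where 11.9% of 13260 genes did. These were Slc5a2, Pck1, Fbp1, G6pc and Slc37a4. Fbp1 averaged 367 ± 74.3 FPKM on high salt (n = 5) and 852 ± 167 FPKM on normal salt (SD, n = 6), a ratio of 0.431. Slc37a4 averaged 82.9 ± 13.5 FPKM on high salt and 182 ± 19.7 FPKM on normal salt, and G6pc 80.9 ± 13.9 FPKM on high salt and 178 ± 33.7 FPKM on normal salt. Slc5a2 averaged 81.2 ± 26.9 FPKM on high salt and 187 ± 42.02 FPKM on normal salt, and Pck1 1056 ± 132 FPKM on high salt and 1729 ± 418 FPKM on normal salt. At 2am in kidneys labelled Per1KO this held for 1 row, Fbp1, at 551 ± 51.0 FPKM on high salt and 706 ± 64.6 FPKM on normal salt (10.1% of genes). In SS it held for 0 rows at 2am (2.60% of genes) and 0 rows at 2pm (2.67% of genes, or 9.95% without the 3 low libraries). Slc5a1 in SS at 2pm averaged 16.5 ± 5.16 FPKM on high salt and 9.22 ± 4.37 FPKM on normal salt, a ratio of 1.79, with overlapping ranges.

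The facilitative transporters showed no difference past the threshold between labels or times with all libraries. Slc2a2 group means ran between 52.6 ± 23.3 FPKM (SS, high salt, 2pm) and 75.6 ± 5.24 FPKM (labelled Per1KO, high salt, 2am; SD, n = 5 each), and in both tables no neighbouring pair of groups in the order of means differed by more than the larger SD. Slc2a1, the transporter of the blood side of later tubule segments and of most other cell types, had group means between 12.9 ± 2.08 FPKM (labelled Per1KO, normal salt, 2pm, n = 6) and 18.6 ± 7.02 FPKM (SS, high salt, 2pm, n = 5). The highest Slc2a1 values, 23.6, 26.9 and 27.5 FPKM, were those of the 3 libraries low in early proximal tubule markers. Between 2am and 2pm in SS, Slc2a1 had a difference of -0.42 ± 0.19 on high salt (limma adjusted p = 0.180) and of -0.27 ± 0.13 on normal salt (adjusted p = 0.122), and neither passed.

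The members also differed in which genes they followed across libraries. For each member the 2 genes with the highest lower value of Pearson's r over the 20 high salt and the 23 normal salt libraries were taken from 11443 candidates, as a description without a test, since the points share tissue composition and scaling. Slc5a2 was closest to Slc34a3, a sodium-phosphate cotransporter (r = 0.977 on high salt and 0.983 on normal salt), and Fam151a. Slc5a1 was closest to Kank1 and Slc45a3 (0.860 and 0.881 on high salt). Pck1 was closest to the glycine cleavage gene Gldc (0.971 and 0.969) and to Acot12, and Fbp1 to Acsm1 (0.979 and 0.977). G6pc was closest to Akr1c1 (0.958 and 0.926) and Tsku, Slc37a4 to Fmo1 (0.926 and 0.915) and Fam107b, Slc2a2 to Steap1 and Hs1bp3, and Slc2a1 to Reep5 and Cyb561. Among the members themselves, G6pc and Pck1 had r = 0.955 on high salt and 0.871 on normal salt, and Fbp1 and Slc37a4 had 0.938 and 0.843. Slc5a2 and Slc5a1, the early and the later uptake transporter, had -0.0726 and -0.259.

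The rest of the pathway was followed in 3 lists. One held 14 other genes of sugar transport, of which 11 were tested. They are carriers of the Slc5a and Slc2a families and Pdzk1ip1, and not all of them carry sugar. The other lists held 25 genes of gluconeogenic supply and shared glycolytic steps, of which 24 were tested, and 18 regulators. Their counts are read against the share of all genes that passed in the same direction. On high salt at 2pm, 12 of the 24 supply and shared-step genes were lower in kidneys labelled Per1KO and 1 higher, with a median log2 difference of -0.30, against 15.7% lower and a median of 0.003 over all genes. Without the 2 low SS libraries 16 were lower and 1 higher, with a median of -0.52 (18.2% of all genes lower). At 2am 9 of the 24 were lower and 0 higher, with a median of -0.42 (4.64% of all genes lower), among them Mdh1, the cytosolic malate dehydrogenase, at 623 ± 49.6 FPKM in kidneys labelled Per1KO and 938 ± 112 FPKM in SS (-0.59 ± 0.12, limma adjusted p = 0.00692). On normal salt 0 of 24 passed between labels at either time.

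Of the 11 tested genes of the sugar transport list, 6 were lower and 0 higher at 2pm on high salt in kidneys labelled Per1KO, where 15.7% of all genes were lower. Without the 2 low SS libraries 3 were lower, where 18.2% of all genes were. Slc5a11, an inositol and glucose transporter, was 14.2 ± 2.21 FPKM in kidneys labelled Per1KO and 30.4 ± 3.79 FPKM in SS (-1.05 ± 0.11, limma adjusted p = 2.3e-05). Slc5a9, a mannose and glucose transporter, was 5.57 ± 1.07 FPKM in kidneys labelled Per1KO and 12.5 ± 2.67 FPKM in SS (-1.03 ± 0.13, adjusted p = 4.2e-05). Slc2a5, the fructose transporter, was 8.21 ± 2.56 FPKM in kidneys labelled Per1KO and 28.3 ± 16.1 FPKM in SS (-1.46 ± 0.48, adjusted p = 0.0289). The values of these genes use all libraries, and which of them kept the call without the 2 low SS libraries is not given here. In the comparison of genotype differences between diets at 2pm, Slc5a11 was at -1.08 ± 0.14 (adjusted p = 7.2e-05), the pyruvate carboxylase gene Pc at -0.95 ± 0.26 (adjusted p = 0.00957) and the glycerol kinase gene Gk at -0.91 ± 0.20 (adjusted p = 0.00190).

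Between 2am and 2pm in SS on normal salt, 5 of 24 supply and shared-step genes were higher and 2 lower, and 6 of 18 regulators were higher and 2 lower, where 26.3% of all genes passed, 14.3% as higher. Without the low library 4 of 24 and 8 of 18 were higher and 3 and 2 lower, where 29.4% of all genes passed. Slc16a1, the lactate and pyruvate transporter MCT1, was 77.8 ± 15.3 FPKM at 2am and 19.1 ± 11.4 FPKM at 2pm in SS (2.18 ± 0.34, limma adjusted p = 0.000148). In kidneys labelled Per1KO it was 44.7 ± 15.9 FPKM at 2am and 39.9 ± 15.4 FPKM at 2pm, and its day-night difference differed there minus SS by -1.99 ± 0.49 (adjusted p = 0.0346). On high salt in SS it was 93.4 ± 22.5 FPKM at 2am and 18.9 ± 14.6 FPKM at 2pm (2.69 ± 0.47, adjusted p = 0.00377). The clock repressors Nr1d1 and Cry1, which are known in liver to act on gluconeogenic genes, moved in opposite directions at night in SS on normal salt. Nr1d1 was 1.86 ± 0.463 FPKM at 2am and 35.3 ± 5.66 FPKM at 2pm, and Cry1 14.3 ± 1.16 FPKM at 2am and 2.89 ± 1.02 FPKM at 2pm. The Nr1d1 day-night difference was smaller in size in kidneys labelled Per1KO than in SS, with an interaction of 2.35 ± 0.15 on normal salt (adjusted p = 4.9e-09) and of 2.40 ± 0.27 on high salt (adjusted p = 0.000487).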

How the data were processed

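Poly(A)-selected kidney cortex RNA of 43 libraries was measured as FPKM. The authors deposited 1 FPKM table per diet, and each table was normalized on its own. Per the submitters' processing notes, the tools were featureCounts 1.5.0-p3, StringTie 1.3.3b, HISAT2 2.0.5 and fastp. The notes assign no step to a tool, and no build is named in the labels or headers. Members and gene lists were chosen with earlier results of these data known. A further sheet repeats genes of the others and was not used, and 0 value columns were left without a sample.

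Values were tested as log2(FPKM + 1) in R 4.3.3 by limma 3.58.1, whose moderated variances followed the mean level. Genes entered where 5 or more libraries reached 1 FPKM (13436 on normal salt, 14899 on high salt, 13260 in both). Each table was 1 fit of its 4 groups, and comparisons between diets used 1 fit of all 43 libraries. P-values were adjusted over all genes tested by Benjamini-Hochberg, with a threshold of 0.05. Shares of all genes whose ranges do not overlap are given only between diets, so other statements that ranges did not overlap describe levels only. Whole fragments were recovered from FPKM and gene length (100% of values within 0.01 of a whole number) and gave depths with medians of 20.5 M on high salt and 29.7 M on normal salt, which limit the precision of low genes. They also served voom, an alternative.

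Log2 differences are printed only for members with an unadjusted p under 0.05 in the fit of all libraries or without the 3 libraries low in early proximal tubule markers; other members are given by level. From the pathway lists, at most the 3 passing genes with the largest difference per comparison are named. Of the genes most alike to each member, 1 is not reported here. No 2 libraries were copies of each other. The fit was tested on simulated data. Alternatives covered the pseudocount, the low-value filter, scaling, the replicate block, single left-out libraries, the groups in the fit, voom, library series and separate fits per table.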

Additional observations from a re-analysis of the deposited data

Results flagged for a closer look

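In 72 sets of 5 or 6 libraries (each member row in each group), 5 held a library far from the others by Dixon's test, which chance gives in about 1 in 20 sets. Fbp1 in kidneys labelled Per1KO on normal salt at 2pm was highest in replicate 1, at 1174 FPKM, with the next at 878.8 FPKM. Slc5a2 in kidneys labelled Per1KO on high salt at 2am was lowest in replicate 4, at 128.2 FPKM, with the next at 139.2 FPKM. Slc2a1 in SS on high salt at 2am was highest in replicate 4, at 19.69 FPKM, with the next at 12.42 FPKM. The flat row named G6pc was highest in replicate 1 of kidneys labelled Per1KO on high salt at 2am (22.17 FPKM, next 18.91 FPKM) and lowest in replicate 4 of SS on high salt at 2am (17.79 FPKM, next 20.86 FPKM).

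Effects that differed between diets by the test of the difference itself were 3. The difference between labels at 2pm was lower on high salt than on normal salt by -0.73 for Fbp1 and by -0.79 for Slc37a4 on the log2 scale. The difference between 2am and 2pm in kidneys labelled Per1KO was higher on high salt than on normal salt by 0.77 for Slc37a4.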

How the results depend on the processing

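Counts of the 9 member rows that passed moved under several settings. Shares of all genes are given here only where the 3 low libraries were left out or 1 library series was used. Under the other settings the share may have moved as well, so their counts show sensitivity and no gain or loss particular to the members. With a fit of only the groups compared, the count was 3 in place of 0 for labelled Per1KO against SS on normal salt at 2am, 2 in place of 0 for 2am against 2pm in labelled Per1KO on normal salt, 1 in place of 2 for labelled Per1KO against SS on high salt at 2pm, and 4 in place of 1 at 2am. On high salt it was 4 in place of 0 for 2am against 2pm in labelled Per1KO and 0 in place of 1 in SS. Leaving out the 3 libraries low in early proximal tubule markers, an alternative chosen after seeing the data, gave 1 in place of 0 for the label-by-time interaction on normal salt, 5 in place of 2 between labels on high salt at 2pm, 0 in place of 1 for time in SS on high salt, and 4 in place of 2 for the label-by-diet interaction at 2pm. Series AZ0xx alone gave 5 and AZxx alone 1. Without the filter the count was 0 for labels on high salt at 2am, 0 for time in SS on high salt, 1 for the label-by-diet interaction at 2pm and 0 for the time-by-diet interaction in labelled Per1KO. With voom it was 0 for labels on high salt at 2am, 1 for the label-by-diet interaction at 2pm and 2 for the time-by-diet interaction in labelled Per1KO, for which separate fits per table also gave 2.

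Some differences changed direction at 2pm on high salt. Leaving out the 3 libraries gave -0.89 for Slc5a2, -1.0 for Pck1 and -0.83 for G6pc, and -1.02 for Slc5a2 in the label-by-diet interaction. Series AZ0xx alone gave -1.28 for Slc5a2, -0.11 for Slc2a2, -1.34 for Pck1 and -1.10 for G6pc, and series as a covariate -0.02 for Pck1. With single libraries left out, the label difference at 2pm on high salt ranged over -0.12 to 1.43 for Slc5a2, -0.35 to 0.63 for Pck1 and -0.33 to 0.64 for G6pc. It ranged over -0.43 to 0.11 for Pck1 on normal salt. The ranges were -0.01 to 0.30 for Fbp1 in the label-by-time interaction on high salt and -0.76 to 0.78 for Slc5a2 in the label-by-diet interaction at 2pm. Counts then ranged over 2 to 4 for time in SS on normal salt and for labels on high salt at 2pm, 0 to 1 for labels on high salt at 2am and for the label-by-time interaction on normal salt, 0 to 5 for time in SS on high salt, 1 to 2 for the label-by-diet interaction at 2pm and 0 to 2 for the time-by-diet interaction in labelled Per1KO.

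Replicate numbers did not pair the libraries: same-numbered libraries of different groups had a mean correlation of deviations of 0.03 on high salt (-0.23 to 0.42) and 0.02 on normal salt (-0.53 to 0.61). The replicate block gave 0 in place of 1 for the time-by-diet interaction in labelled Per1KO (Slc37a4 at 0.74) and changed no other call. Over single members and all alternatives, 748 values kept direction and side of the threshold, 51 lost the call, 28 gained it and 20 changed direction. Where no value beside it shows a cause, the cause was not tested. Diet and table, and time and library series, cannot be told apart, and bulk values cannot separate cell number from RNA per cell.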
